A study of Homo sapiens with 15 samples.

Results

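The comparison described here asked how far the transcriptional effect of trastuzumab deruxtecan (T-DXd) in NCI-N87 cells was shared by SNU-484 cells. It covered the genes listed in the count tables of both lines, 15259 of the 21560 genes listed in either, of which 14785 passed a filter on low counts and were tested. Each line is labelled as a human gastric carcinoma line of the genotype WT, and was given vehicle (10 mM acetate buffer with 5% sorbitol, pH 5.5) or T-DXd at 1 µg/ml for 72 h. There were 3 libraries per group, called biological replicates in the labels, so that 12 of the 15 libraries of the series entered, and the 3 trastuzumab libraries of NCI-N87 did not. The column names of the SNU-484 controls carry the letters iso, whereas their labels give vehicle, so whether the controls of both lines were handled alike is not known.

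T-DXd joins the HER2 antibody trastuzumab to DXd, an inhibitor of topoisomerase I. HER2, the product of ERBB2, is the receptor through which the antibody enters the cell, and trapped topoisomerase I on DNA gives strand breaks, p53 and checkpoint activity and arrest. DNA that reaches the cytosol can be sensed by cGAS, which signals through STING to type I interferon, and interferon drives the interferon-stimulated genes. ERBB2 (chromosome 17, 39688094 to 39728658 on GRCh38) measured 11388 ± 117 CPM (read counts per fixed number of reads of the library after TMM scaling, mean ± SD, n = 3) in NCI-N87 with vehicle and 290.3 ± 4.95 CPM in SNU-484 with vehicle, with all 12 libraries scaled together. With T-DXd it measured 11242 ± 91.3 and 319.9 ± 14.9 CPM.

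The 2 lines also differed in cell type markers. In NCI-N87 all 7 epithelial markers were listed and summed to 9640 to 9820 CPM in the vehicle and 11700 to 12000 CPM in the T-DXd libraries, each table being scaled on its own. In SNU-484 the defining keratins KRT18 and KRT19 were not listed, the 5 listed markers summed to 17.9 to 25 CPM over all 6 libraries, and with vehicle CLDN7 was at 19.2 CPM, EPCAM at 2.05 CPM, KRT8 at 1.13 CPM, CLDN4 at 0.517 CPM and CDH1 at 0.0818 CPM. All 9 mesenchymal markers were listed in SNU-484 (summing to 2220 to 2340 CPM with vehicle, 2320 to 2530 CPM with T-DXd), against 4 listed in NCI-N87 (29.2 to 31 and 74 to 77.2 CPM). With vehicle, most of the SNU-484 sum came from COL3A1 at 1210 CPM, VIM at 747 CPM and COL1A2 at 214 CPM. ZEB1 was at 52.1 CPM, SPARC at 17 CPM, COL1A1 at 13.6 CPM and CDH2 at 12.1 CPM. PDGFRB was at 0.481 CPM and FN1 at 0.826 CPM, and FN1 was higher in NCI-N87 (25.1 CPM). PTPRC, which encodes the leukocyte antigen CD45, was at 121 CPM in vehicle-treated SNU-484 and not listed in NCI-N87. In the SNU-484 libraries the keratin markers and CDH1 were thus unlisted or near 0, which is not an epithelial pattern of expression. These markers alone cannot settle whether the cells came from a carcinoma. The identity of these cells rests on the label, and every comparison between the lines below depends on it. The 90 genes above 50 CPM in vehicle-treated NCI-N87 and under 1 CPM in both SNU-484 groups summed to 32.8 to 35.6 CPM in each of the 6 SNU-484 libraries.

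Library totals ran from 51963223 to 61462654 counts in NCI-N87, and those of SNU-484 from 46666533 to 66581448. SNU-484 T-DXd replicate 3, the smallest library, stood apart. Its median absolute log2 difference from the other libraries of its group was 0.199 and 0.168, against 0.0658 to 0.0999 in the other 10 pairs of libraries of 1 group. Genes with short transcripts were higher in it and genes with long transcripts lower, with median shifts from the vehicle mean running from 0.16 in the shortest of 4 length classes to -0.189 in the longest. The 3 NCI-N87 T-DXd libraries shifted the other way, from -0.11 to -0.0807 in the shortest and from 0.0563 to 0.0879 in the longest class. The SNU-484 controls also differed by length, with -0.0518 in the shortest and 0.0648 in the longest class in vehicle replicate 1. Vehicle replicates 2 and 3 had 0.0238 and 0.0318 in the shortest and -0.0267 and -0.0364 in the longest class. Results are therefore also given without SNU-484 T-DXd replicate 3, or with the length trend removed, where they rest on them.

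The difference between the lines, taken as the log2 fold change with T-DXd in NCI-N87 minus that in SNU-484, passed an adjusted p of 0.05 (edgeR quasi-likelihood test, adjusted over all genes tested) for 6161 genes, or 41.7% of those tested. It was positive for 3301 (22.3%) and negative for 2860 (19.3%), a positive share of 53.6% that was 43.4% with upper-quartile scaling. In NCI-N87 itself 7628 genes changed (51.6%), with 3971 up (26.9%) and 3657 down (24.7%). In SNU-484 4792 changed (32.4%), with 2407 up (16.3%) and 2385 down (16.1%). Changes of at least 2-fold were called for 599 genes (4.05%) in NCI-N87 and for 157 (1.06%) in SNU-484. The median absolute log2 fold change was 0.239 and 0.160, and 61.6% of genes had the larger absolute change in NCI-N87.

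A minority of the genes called in either line moved the same way in both. Of the genes called in both lines, 2873 in all, 1795 moved in the same direction (964 up, 831 down) and 1078 in opposite directions (582 up in NCI-N87 and down in SNU-484, 496 the reverse). These 2873 genes made up 37.7% of the NCI-N87 calls and 60% of the SNU-484 calls. In NCI-N87 only, with the difference called, 1669 genes rose and 1447 fell. In SNU-484 only, 563 rose and 593 fell. For 2402 further genes a call in a single line came without a called difference, so that the lines could not be told apart, and 5238 were called in neither. Over all 14785 genes the log2 fold changes of the 2 lines had a Pearson r of 0.0828 and a Spearman rho of 0.102, which describe genes within these libraries and not replicates. Without SNU-484 T-DXd replicate 3 the same-direction class grew to 2481 genes and the opposite class to 1234.

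**Figure D1:**
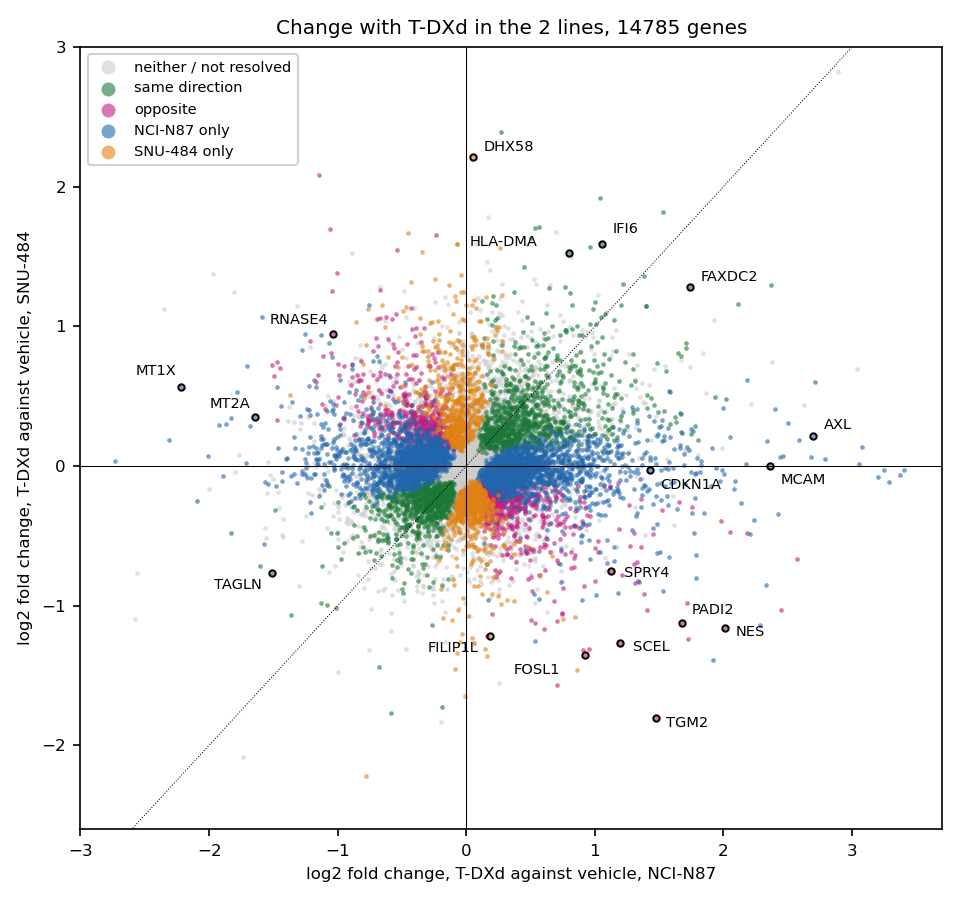
Log2 fold change with T-DXd against vehicle in NCI-N87 (x axis) and in SNU-484 (y axis), 1 point per gene for the 14785 genes tested, coloured by class, with the dotted line marking equal change. The points gather along both axes rather than along the dotted line (Pearson r 0.0828), TGM2 and NES lie at the lower right, up in NCI-N87 and down in SNU-484, and FAXDC2, IFI6 and HLA-DMA lie in the upper right.

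Among the largest positive differences were genes that rose in NCI-N87 and fell in SNU-484. TGM2, which encodes tissue transglutaminase, a cross-linker of matrix proteins (chromosome 20, 38127385 to 38168475), measured 24.2, 22.5 and 25.7 CPM with vehicle and 64.7, 68.96 and 67.4 CPM with T-DXd in NCI-N87. In SNU-484 it measured 35.4, 34.8 and 31.5 CPM with vehicle and 8.92, 9.97 and 10.2 CPM with T-DXd. Each T-DXd library thus lay above every vehicle library in NCI-N87 and below every one in SNU-484. The genes of the highest and lowest differences were picked among those without overlap in the line with the larger change. The separation of such genes in that line therefore follows from the choice and is no further result. The log2 fold changes were 1.47 ± 0.07 (SE) and -1.81 ± 0.07, and the difference was 3.28 ± 0.10 (adjusted p = 2.12e-10, edgeR).

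NES, which encodes the intermediate filament nestin (chromosome 1, 156668763 to 156677407), went from 8.09, 9.84 and 8.07 CPM to 34.2, 36.02 and 34.3 CPM in NCI-N87. In SNU-484 it went from 15.1, 14.1 and 13.2 CPM to 6.27, 6.99 and 5.59 CPM, again with no overlap in either line. Its difference was 3.17 ± 0.13 (adjusted p = 2.66e-09, edgeR). PADI2, an enzyme that converts arginine in proteins to citrulline, rose by 1.68 ± 0.13 on the log2 scale in NCI-N87 and had -1.12 ± 0.13 in SNU-484. SCEL, a cornified envelope protein of stratified epithelia, had 1.20 ± 0.07 and -1.26 ± 0.08. NOS3 (endothelial nitric oxide synthase, 2.19 and -0.48), the collagen COL1A1 (2.05 and -0.47) and CORO1A, an actin-binding coronin (0.84 and -0.73), followed the same pattern.

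Other genes fell in NCI-N87 and rose in SNU-484. RNASE4, a secreted ribonuclease (chromosome 14, 20684560 to 20701216), measured 4.81, 5.51 and 4.87 CPM with vehicle and 2.49, 2.06 and 2.82 CPM with T-DXd in NCI-N87. In SNU-484 it measured 14.03, 14.02 and 13.1 CPM and 25.3, 25.1 and 28.9 CPM, so that the groups separated in both lines, downwards and upwards. DDIT4, an inhibitor of mTORC1 signalling that responds to stress (chromosome 10, 72273924 to 72276036), went from 184, 174 and 178 to 124, 119 and 121 CPM in NCI-N87, and in SNU-484 it went from 3.49, 3.504 and 3.49 to 5.71, 6.55 and 6.64 CPM. The difference was -1.41 ± 0.08 (adjusted p = 6.61e-08, edgeR). The linker histone H1-2 (-0.63 and 0.66), the circadian transcription factor DBP (-0.60 and 0.54), NREP (-0.72 and 0.83) and the prolyl hydroxylase subunit P4HA1 (-0.65 and 0.35) also fell in NCI-N87 and rose in SNU-484.

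Some genes changed in a single line, with the difference called. MCAM, a cell adhesion molecule (chromosome 11, 119308529 to 119317130), measured 5.52, 5.45 and 4.503 CPM with vehicle and 27.7, 25.8 and 25.9 CPM with T-DXd in NCI-N87. In SNU-484 it measured 41.03, 41.05 and 42.9 and 39.8, 43.1 and 42.4 CPM, and these groups overlapped. The difference was 2.36 ± 0.10 (adjusted p = 2.66e-09, edgeR). DKK1, a secreted Wnt inhibitor, rose from 9.98 ± 0.503 to 29.1 ± 1.81 CPM (SD, n = 3) in NCI-N87 and measured 923 ± 15.5 and 914 ± 49.5 CPM in SNU-484. The receptor tyrosine kinase AXL had 2.70 ± 0.14 in NCI-N87 and 0.22 ± 0.08 in SNU-484, where its adjusted p was 0.0579 (edgeR), and 0.0456 and 0.0376 without NCI-N87 vehicle replicate 2 or T-DXd replicate 2. Its rise in SNU-484 was called in 8 of 22 alternatives, with log2 fold changes from 0.175 to 0.2609 over all of them, so AXL was a borderline member of this class. The linker histone H1-10 fell by 1.34 on the log2 scale in NCI-N87 and had -0.06 ± 0.07 in SNU-484. That fall also passed the test in SNU-484 without SNU-484 T-DXd replicate 3.

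In SNU-484 alone, FILIP1L (chromosome 3, 99828811 to 100114501) went from 50.4, 45.9 and 46.5 CPM to 20.99, 22.1 and 18.3 CPM, against 17.1, 16.9 and 17.8 and 20.99, 17.02 and 20.9 CPM in NCI-N87, where the groups overlapped. The change in NCI-N87 was called without its T-DXd replicate 2 or without SNU-484 T-DXd replicate 3 (adjusted p = 0.0106 and 0.0463, edgeR). SPATA5, an ATPase of ribosome assembly, fell from 131 ± 2.44 to 61.97 ± 3.13 CPM (SD, n = 3) and measured 20.005 ± 0.206 and 20.2 ± 0.322 CPM in NCI-N87. RGS5, a regulator of G protein signalling, fell from 357 ± 0.835 to 203 ± 9.21 CPM. BTN3A3, a butyrophilin of the immunoglobulin family (1.15 ± 0.12, against 0.05 ± 0.11 in NCI-N87), and SMAD6, an inhibitor of BMP signalling (0.85 ± 0.07, against -0.08 ± 0.07), rose in SNU-484 and were not called in NCI-N87.

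**Figure D2:**
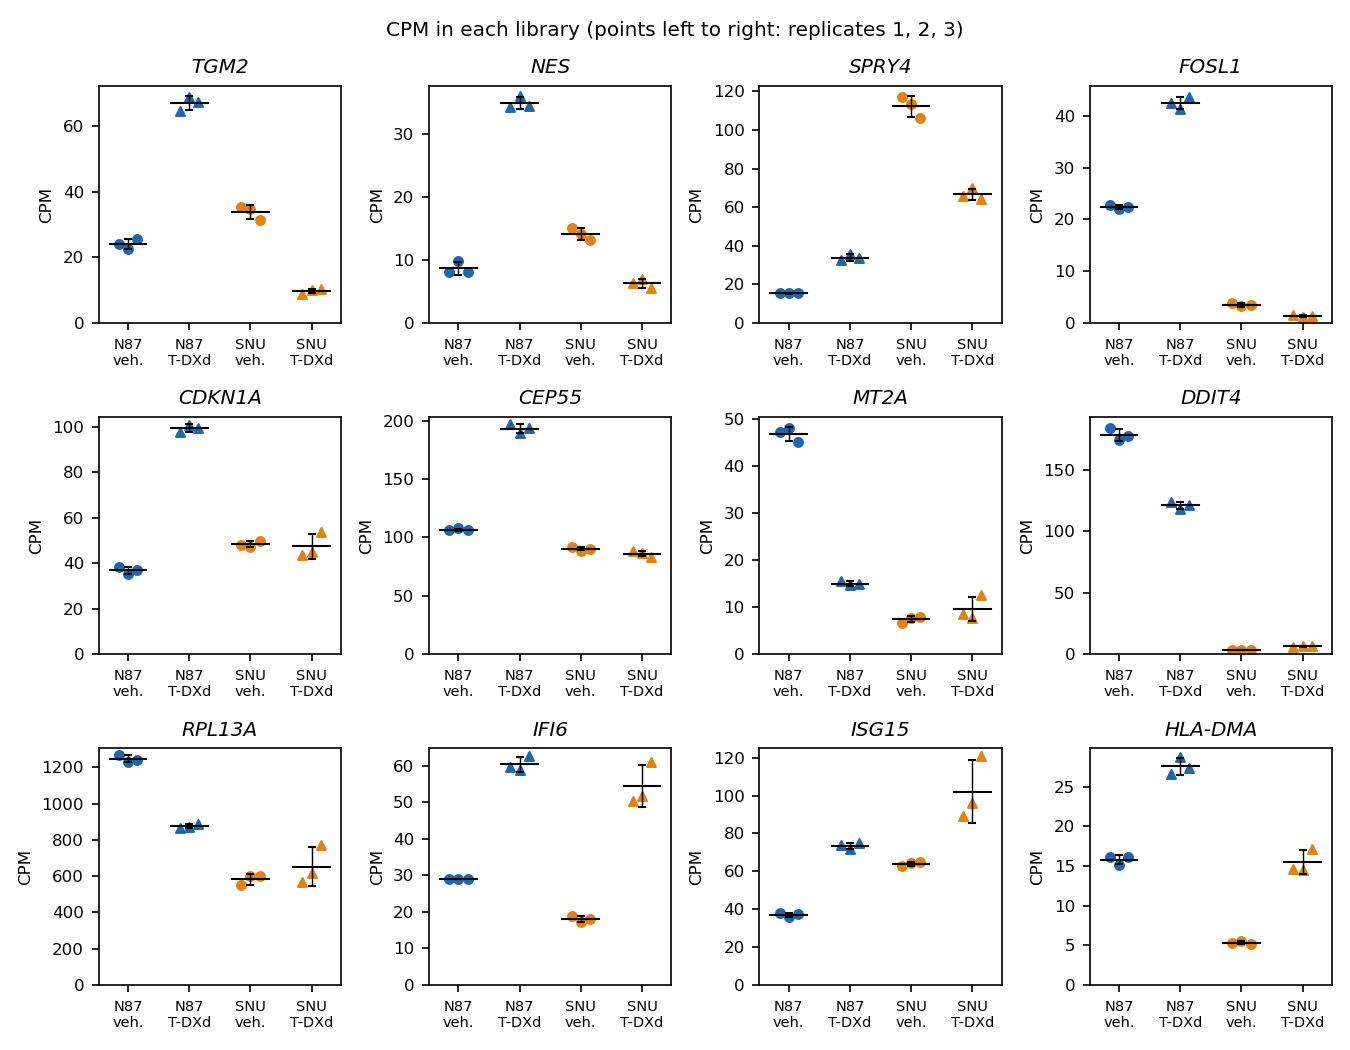
CPM of 12 genes in each of the 12 libraries, by line and treatment, with NCI-N87 in blue, SNU-484 in orange, circles for vehicle and triangles for T-DXd, black lines for the group mean and error bars for the SD (n = 3). TGM2, NES, SPRY4 and FOSL1 rise in NCI-N87 and fall in SNU-484, CDKN1A and CEP55 rise in NCI-N87, and IFI6, ISG15 and HLA-DMA rise in both.

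The genes of HER2 and ERK signalling moved in opposite directions on balance. ERK, the last kinase of the cascade below HER2 and RAS, switches on immediate-early genes and also its own inhibitors, the Sprouty proteins and the DUSP phosphatases. Of 39 members tested, 22 rose and 6 fell in NCI-N87, and 6 rose (3 without SNU-484 vehicle replicate 3 or T-DXd replicate 2) and 20 fell in SNU-484. The difference was positive for 25 and negative for 4, against 22.3% and 19.3% of all genes. The median log2 fold change was 0.40 in NCI-N87 and -0.26 in SNU-484, against 0.00 in each line over all genes tested. For this list and those that follow, the shares over all genes were 26.9% up and 24.7% down in NCI-N87 and 16.3% and 16.1% in SNU-484.

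Among the feedback inhibitors, SPRY4 (chromosome 5, 142310430 to 142325021) went from 15.4, 15.4 and 15.8 to 32.6, 35.7 and 33.6 CPM in NCI-N87, and in SNU-484 it went from 117, 114 and 106 to 65.6, 69.9 and 64.4 CPM. All T-DXd libraries lay above the vehicle libraries in the first line and below them in the second. DUSP6, the phosphatase of ERK, had 0.82 and -0.62, and DUSP5 had 1.43 and 0.04, the latter not called. SPRY1 fell in both lines (-0.63 and -0.31), whereas the fall of SPRY2 (-0.54 and -0.16) was not called in SNU-484 in 7 of the 12 fits that left out 1 library. Among the transcription factors, FOSL1, a subunit of AP-1, went from 22.7, 22.1 and 22.4 to 42.4, 41.3 and 43.6 CPM in NCI-N87, and in SNU-484 it went from 3.92, 3.23 and 3.44 to 1.49, 1.22 and 1.42 CPM, a difference of 2.28 ± 0.12 (adjusted p = 2.21e-08, edgeR). FOS (0.46 and -0.50) and FOSB (1.00 and -0.59) also rose and fell. EGR1 fell in both lines, by 0.19 on the log2 scale in NCI-N87 and by 1.72 in SNU-484, and MYC by 0.24 and 0.65.

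The ligands of the receptor family were split. HBEGF rose in NCI-N87 (1.23) and was not called in SNU-484 (-0.05), whereas TGFA rose in both (1.28 and 0.58), in SNU-484 not without vehicle replicate 1 or 2 or T-DXd replicate 2, and its difference was not called without SNU-484 vehicle replicate 3. AREG, the ligand amphiregulin, rose from 42.4 ± 1.63 to 70.98 ± 1.098 CPM (SD, n = 3) in NCI-N87, and went from 0.303 ± 0.0701 to 0.146 ± 0.0229 CPM in SNU-484. The AREG call in SNU-484 was lost without SNU-484 vehicle replicate 1 or with limma-voom (adjusted p up to 0.0723, edgeR). ERBB2 itself was called in SNU-484 (0.14 ± 0.03) and not in NCI-N87 (-0.02 ± 0.03), and the difference passed the test (adjusted p = 0.0148, edgeR).

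The cell cycle genes of G2 and mitosis rose in NCI-N87 and not in SNU-484. Of 82 members 63 rose and 4 fell in NCI-N87, whereas 4 rose (7 without SNU-484 T-DXd replicate 3 and 8 without T-DXd replicate 1) and 24 fell in SNU-484 (10 with each line fitted on its own). The difference was positive for 66 and negative for 3. The medians were 0.35 and -0.09. In bulk RNA a larger share of cells in G2 or mitosis and more RNA per cell cannot be told apart.

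CEP55, a protein of the last step of cell division (chromosome 10, 93496612 to 93529092), measured 106, 108 and 106 CPM with vehicle and 197, 189 and 193 CPM with T-DXd in NCI-N87, with no overlap. In SNU-484 it measured 91.6, 88.7 and 90.2 and 87.9, 86.8 and 83.4 CPM. The difference was 0.92 ± 0.05 (adjusted p = 4.41e-08, edgeR). HJURP, the chaperone of centromeric histone, had 0.82 ± 0.04 and -0.08 ± 0.04. The mitotic cyclin CCNB1 (0.28 and -0.31), the cyclin CCNA2 (0.40 and -0.18), the proliferation antigen MKI67 (0.33 and -0.36) and the transcription factor FOXM1 (0.46 and -0.15) rose in the first line and fell in the second, FOXM1 in SNU-484 not without vehicle replicate 1. CDK1 rose in both (0.69 and 0.33) and CDC20 fell in both (-0.19 and -0.24). PIF1, a DNA helicase, fell in NCI-N87 from 24.3, 24.05 and 24.1 to 9.67, 10.2 and 12.4 CPM. The kinesin KIF20A and the CDK1 inhibitor WEE1 also fell there (-0.24 and -0.33).

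Genes of DNA replication and repair were more mixed. Of 56 replication genes 23 rose and 10 fell in NCI-N87, 12 rose and 11 fell in SNU-484 (7 fell without vehicle replicate 1), and the difference was positive for 20 and negative for 6 (10 without SNU-484 T-DXd replicate 3). In SNU-484 these shares (21.4% up, 19.6% down) were near those of all genes (16.3% and 16.1%), and in NCI-N87 41.1% rose and 17.9% fell, against 26.9% and 24.7%. RRM2, a subunit of ribonucleotide reductase, rose from 199, 198 and 195 to 388, 382 and 374 CPM in NCI-N87, while in SNU-484 the groups overlapped at 283, 278 and 285 and 283, 273 and 271 CPM. CDC6, which loads the replicative helicase, had 0.66 ± 0.04 and -0.05 ± 0.04. Of 61 checkpoint and repair genes 26 rose and 9 fell in NCI-N87, and 6 rose and 11 fell in SNU-484, where 15 rose without SNU-484 T-DXd replicate 3, and 6 or 7 fell without vehicle replicate 1 or 2. With all libraries 9.84% rose and 18% fell there, against 16.3% and 16.1% of all genes.

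TOP1, which encodes topoisomerase I, the target of DXd (chromosome 20, 41028822 to 41124487), measured 183, 187 and 193 CPM with vehicle and 256, 249 and 246 CPM with T-DXd in NCI-N87. In SNU-484 it measured 212, 188 and 188 and 176, 173 and 142 CPM. It rose in the first line and fell in the second, with a difference of 0.67 ± 0.10 (adjusted p = 0.000151, edgeR). The fall in SNU-484 was not called without SNU-484 vehicle replicate 1 or with that line fitted on its own (adjusted p up to 0.0831, edgeR), whereas the difference passed in all 21 alternatives.

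Of 45 p53 targets 24 rose and 5 fell in NCI-N87 (9 without SNU-484 T-DXd replicate 3 and 3 without NCI-N87 T-DXd replicate 3), and 14 rose and 6 fell in SNU-484. The difference was positive for 18 and negative for 6. CDKN1A, which encodes the cell cycle inhibitor p21 (chromosome 6, 36676463 to 36687332), went from 38.4, 35.1 and 37.1 to 97.8, 101 and 99.5 CPM in NCI-N87. In SNU-484 the groups overlapped at 47.9, 47.4 and 49.9 and 43.7, 44.9 and 53.7 CPM, and the difference was 1.46 ± 0.09 (adjusted p = 1.65e-07, edgeR). GDF15, a stress cytokine, rose in NCI-N87 (0.60) and fell in SNU-484 (-1.16). MDM2, the ligase that degrades p53, had 0.15 and -0.22, both called, the rise not without NCI-N87 vehicle replicate 2 or 3 or T-DXd replicate 1. SESN1, by contrast, fell in NCI-N87 (-0.52) and rose in SNU-484 (0.39). GADD45A (0.42 and 0.53) and ATF3 (0.36 and 0.40), a stress sensor and a stress transcription factor, rose in both lines without a called difference.

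More interferon-stimulated effectors rose than fell in each line. Of 49 tested, 32 rose and 3 fell in NCI-N87 (1 fell without any 1 of the vehicle replicates or T-DXd replicate 2) and 21 rose and 1 fell in SNU-484 (3 fell without T-DXd replicate 3), shares up of 65.3% and 42.9% against 26.9% and 16.3% of all genes. Of the 49, 17 rose in both lines. The medians were 0.32 in both lines, and the difference was positive for 6 and negative for 10. With the length trend removed it was positive for 12, and the median difference of 0.04 became -0.02 with upper-quartile scaling. In all 3 T-DXd libraries of each line the median of the list lay between 0.264 and 0.362 above the vehicle mean.

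IFI6, an interferon-induced mitochondrial protein (chromosome 1, 27666064 to 27672192), measured 29.1, 28.98 and 29.1 CPM with vehicle and 59.6, 58.96 and 62.6 CPM with T-DXd in NCI-N87. In SNU-484 it measured 18.8, 17.3 and 18.03 and 50.4, 51.8 and 61.1 CPM. It rose in both lines without overlap and by more in SNU-484 (1.06 ± 0.07 and 1.59 ± 0.07, difference -0.53 ± 0.09, adjusted p = 0.000502, edgeR). ISG15, a ubiquitin-like modifier (chromosome 1, 1013497 to 1014540), went from 37.96, 36.01 and 37.2 to 73.6, 71.9 and 75.1 CPM in NCI-N87, and in SNU-484 it went from 62.7, 64.3 and 65.01 to 89.5, 95.8 and 121 CPM, where replicate 3 was the highest. Its difference of 0.32 ± 0.12 had an adjusted p = 0.0436 (edgeR), which ran up to 0.121 and passed in 8 of 21 alternatives, failing without any of the libraries other than SNU-484 T-DXd replicate 3 when these were left out in turn. OAS2 (0.67 and 1.00) and OAS3 (0.63 and 0.72), sensors of double-stranded RNA, the E1 enzyme of ISG15 conjugation UBA7 (1.16 and 0.82) and PARP14 (0.42 and 0.46) also rose in both. For OAS3 and PARP14 the difference was called without SNU-484 T-DXd replicate 3 (adjusted p = 0.0228 and 0.0255, edgeR) and not with it.

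Other effectors rose in a single line. IFIT2, which binds RNA and limits translation, rose from 19.5 ± 1.36 to 37.9 ± 1.43 CPM (SD, n = 3) in NCI-N87 and measured 1.19 ± 0.0823 and 0.986 ± 0.138 CPM in SNU-484, a difference of 1.25 ± 0.15 (adjusted p = 2.36e-05, edgeR). SAMD9 had 0.91 ± 0.07 and -0.41 ± 0.16, the latter not called with all libraries and called without SNU-484 vehicle replicate 2 (adjusted p = 0.0135, edgeR). CMPK2, a mitochondrial nucleotide kinase, rose in SNU-484 from 0.505, 0.701 and 0.780 to 1.31, 1.63 and 1.83 CPM and measured 2.88, 2.704 and 2.86 and 2.82, 3.18 and 2.37 CPM in NCI-N87. Another 15 effectors, among them IFI44, MX2, OAS1 and RSAD2, were listed in NCI-N87 alone and were not compared.

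Among the 28 genes of interferon signalling and nucleic acid sensing, 12 rose and 2 fell in NCI-N87 and 11 rose and 3 fell in SNU-484 (1 fell under 14 of the alternatives, 8 of which left out 1 library), and the difference was positive for 7 and negative for 5 (3 without NCI-N87 vehicle replicate 1). The shares up were 42.9% and 39.3%, against 26.9% and 16.3% of all genes, whereas those of the difference (25% and 17.9%) were near the 22.3% and 19.3% of all genes. DHX58, which encodes the RNA sensor LGP2 (chromosome 17, 42101411 to 42112714), went from 0.366, 0.430 and 0.287 to 1.59, 1.61 and 1.85 CPM in SNU-484, and the groups overlapped in NCI-N87 at 5.805, 6.51 and 5.88 and 7.34, 5.08 and 6.44 CPM. The difference was -2.16 ± 0.25 (adjusted p = 1.8e-05, edgeR). DDX58, which encodes RIG-I, rose in both lines (0.36 ± 0.09 and 0.52 ± 0.08), with no called difference, as did the transcription factor IRF1 (0.38 ± 0.06 and 0.55 ± 0.06), whose difference was called without SNU-484 T-DXd replicate 3 (adjusted p = 0.0405, edgeR). STAT3 rose as well (0.24 ± 0.06 and 0.19 ± 0.06), in SNU-484 not without vehicle replicate 2 or 3 or T-DXd replicate 1 or 2.

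Of the cGAS and STING pathway, CGAS had 0.10 ± 0.07 in NCI-N87 and -0.19 ± 0.07 in SNU-484, with an adjusted p of 0.0435 (edgeR) that passed in 9 of 23 alternatives, and its difference between lines in 16 of 21. STING1 (0.24 ± 0.10 and 0.25 ± 0.14) and IRF3 (0.04 ± 0.07 and 0.08 ± 0.07) were called in neither line with all libraries. For STING1 the adjusted p in NCI-N87 was 0.0598 (edgeR), and it was called there in 11 of 23 alternatives. These included the fits without any 1 of the SNU-484 T-DXd libraries. In SNU-484 STING1 was called in 1 of 23. TBK1, the kinase below STING, had 0.00 ± 0.05 in NCI-N87 and -0.14 ± 0.05 in SNU-484, the latter called in 4 of 23 alternatives. ENPP1, the hydrolase that degrades the cGAS product cGAMP outside cells (chromosome 6, 131808020 to 131895155), fell from 3.09, 3.204 and 3.47 to 2.12, 2.45 and 2.503 CPM in NCI-N87. In SNU-484 it rose from 4.46, 4.76 and 4.46 to 6.81, 7.47 and 7.33 CPM. The groups did not overlap in either line, and the difference of -1.13 ± 0.15 (adjusted p = 6.48e-05, edgeR) passed in all 21 alternatives. IFNB1 and CXCL10 were in neither table, and CD274, CD86 and IFI16 were listed in NCI-N87 alone.

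MHC class I genes also rose in both lines. Of 22 members 12 rose and 1 fell in NCI-N87 and 15 rose and 1 fell in SNU-484 (3 fell without T-DXd replicate 3), and the difference was positive for 7 and negative for 5. HLA-B (0.76 and 0.35) and HLA-C (0.34 and 0.53), which share sequence, and B2M (0.52 and 0.29) rose in both, B2M and HLA-B by more in NCI-N87. The difference of HLA-C was called without SNU-484 T-DXd replicate 1 or 3. MR1, which presents microbial metabolites to T cells, went from 10.5, 10.1 and 10.1 to 21.9, 18.8 and 19.4 CPM and from 6.92, 6.93 and 6.91 to 13.8, 12.5 and 11.2 CPM. TAPBPL, an editor of MHC class I peptides, rose in SNU-484 (0.96 ± 0.11) and was not called in NCI-N87 (-0.12 ± 0.09). ERAP1, a trimming peptidase, fell in NCI-N87 (-0.37) and rose in SNU-484 (0.42). Of MHC class II genes, HLA-DMA, which loads peptides on MHC class II (chromosome 6, 32948618 to 32953097), went from 16.1, 15.1 and 16.1 to 26.6, 28.7 and 27.4 CPM in NCI-N87, and in SNU-484 it went from 5.26, 5.54 and 5.22 to 14.6, 14.5 and 17.2 CPM, with a difference of -0.73 ± 0.10 (adjusted p = 0.000106, edgeR).

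**Figure D3:**
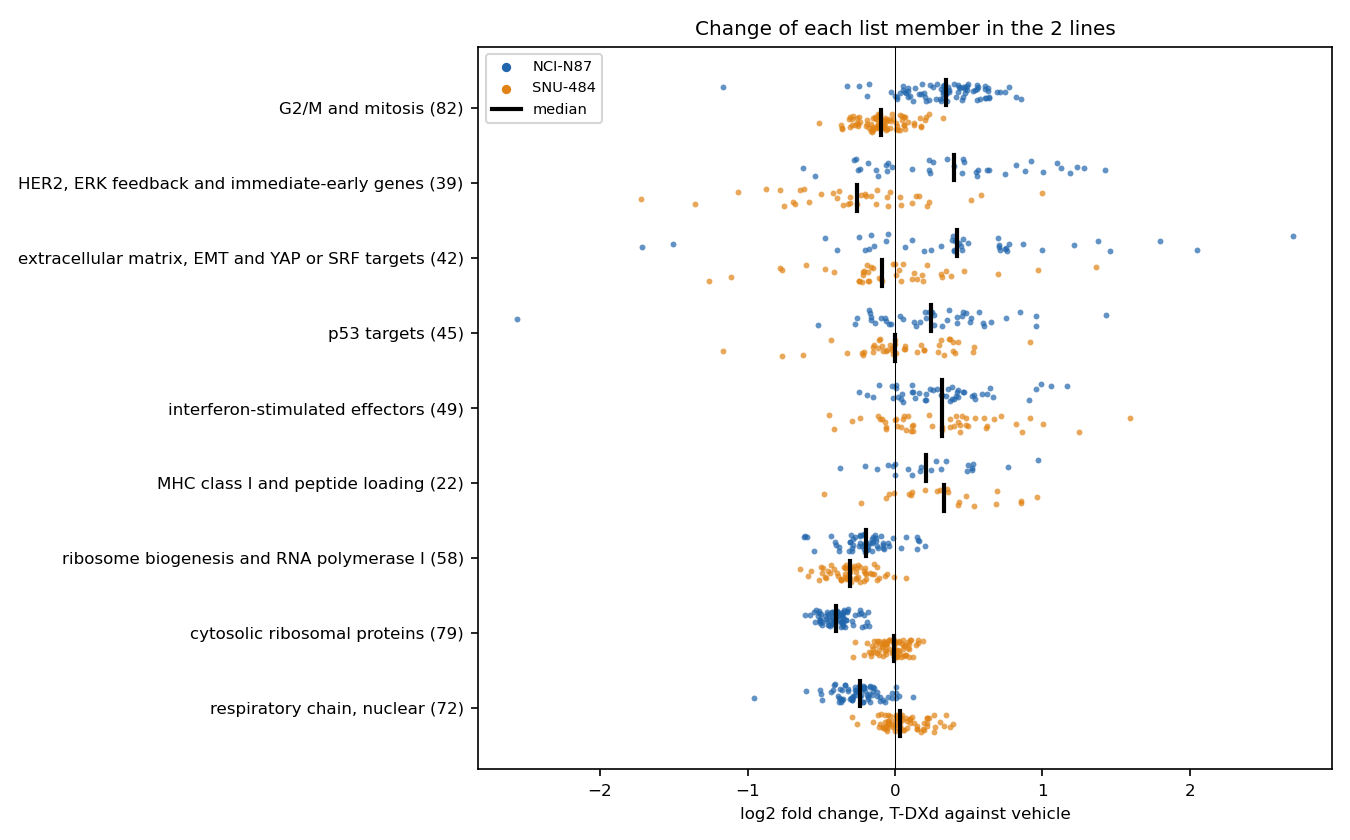
Log2 fold change with T-DXd against vehicle of each member (points) of 9 gene lists in NCI-N87 (blue) and SNU-484 (orange), with black bars for the medians and the number of members in brackets. The medians of G2 and mitosis and of HER2 and ERK lie to the right of 0 in NCI-N87 and to the left in SNU-484. Those of the interferon-stimulated effectors lie to the right in both lines, and those of ribosome biogenesis to the left in both.

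To show sequence beside the values, promoters (250 bases before to 50 after the start, RefSeq, GRCh38.p14) were matched by gene ID for 10977 of the 14785 genes and searched on both strands. The core of the interferon-stimulated response element, GAAA, any 2 bases and GAAA, was present in 26 of 39 promoters of the interferon-stimulated effectors (66.7%) and in 2.78% of all promoters. By class it was in 3.34% of the promoters of genes that rose in both lines and in 1.46% of those of genes that rose in NCI-N87 and fell in SNU-484. The cell cycle homology region, TTTGAA, was in 45 of 68 promoters of the G2 and mitosis list (66.2%, against 9.47% of all), and the CCAAT box in 51 (75%, against 36.9%). In the class that rose in NCI-N87 and fell in SNU-484 TTTGAA was in 12.9% and the AP-1 site TGANTCA in 8.11%, against 4.33% of all promoters for the latter. The 4 promoters below were chosen as those of a pair of effectors that rose in both lines and a pair of mitotic genes that rose in NCI-N87, and lie at chr1:27672143-27672442 (minus strand), chr1:1013247-1013546 (plus), chr10:93496362-93496661 (plus) and chr2:233854486-233854785 (minus). Capitals mark the interferon-stimulated response element core in the first pair and TTTGAA or CCAAT in the second, on either strand, with 3, 2, 3 and 5 matches. A match describes the sequence and not a bound site.
IFI6: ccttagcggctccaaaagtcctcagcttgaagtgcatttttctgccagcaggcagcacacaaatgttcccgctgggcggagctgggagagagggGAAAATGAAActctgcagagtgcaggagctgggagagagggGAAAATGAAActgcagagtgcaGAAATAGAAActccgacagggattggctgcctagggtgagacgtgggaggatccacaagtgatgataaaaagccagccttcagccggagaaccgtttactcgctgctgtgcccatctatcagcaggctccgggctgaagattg
ISG15: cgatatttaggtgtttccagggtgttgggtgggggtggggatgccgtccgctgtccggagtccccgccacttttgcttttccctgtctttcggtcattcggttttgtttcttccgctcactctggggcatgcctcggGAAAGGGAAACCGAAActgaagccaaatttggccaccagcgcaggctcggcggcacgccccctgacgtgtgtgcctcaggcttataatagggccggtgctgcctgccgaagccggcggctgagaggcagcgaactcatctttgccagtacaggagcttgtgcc
CEP55: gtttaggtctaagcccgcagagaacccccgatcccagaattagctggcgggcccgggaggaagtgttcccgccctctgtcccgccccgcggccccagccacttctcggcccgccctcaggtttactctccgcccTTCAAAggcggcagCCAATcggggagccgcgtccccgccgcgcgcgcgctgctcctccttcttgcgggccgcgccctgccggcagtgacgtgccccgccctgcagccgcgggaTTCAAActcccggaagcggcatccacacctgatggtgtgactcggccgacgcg
HJURP: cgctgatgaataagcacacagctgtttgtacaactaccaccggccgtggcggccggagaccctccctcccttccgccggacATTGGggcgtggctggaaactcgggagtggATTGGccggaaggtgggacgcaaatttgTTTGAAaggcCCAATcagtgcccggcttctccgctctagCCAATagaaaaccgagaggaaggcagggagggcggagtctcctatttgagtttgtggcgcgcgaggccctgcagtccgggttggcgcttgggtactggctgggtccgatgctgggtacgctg

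Genes of ribosome assembly fell in both lines. Of 58 ribosome biogenesis and RNA polymerase I genes 36 fell and 4 rose in NCI-N87, and 48 fell and none rose in SNU-484. The medians were -0.19 and -0.30, and the difference was positive for 17 (27 with the length trend removed) and negative for 3 (5 without SNU-484 T-DXd replicate 1). UTP20 (-0.61 and -0.52) and HEATR1 (-0.38 and -0.50), parts of the machinery that processes the small subunit RNA, fell in both with no called difference, although that of UTP20 was called without SNU-484 T-DXd replicate 3. DDX21, a nucleolar RNA helicase, fell in SNU-484 from 278, 253 and 246 to 187, 181 and 148 CPM and had 0.15 ± 0.07 in NCI-N87, where it was not called with all libraries and was called without SNU-484 T-DXd replicate 3 (adjusted p = 0.00397, edgeR). FBL, the methyltransferase fibrillarin, fell in NCI-N87 (-0.55 ± 0.08) and had -0.12 ± 0.08 in SNU-484, a fall that passed without SNU-484 T-DXd replicate 3.

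The ribosomal proteins themselves fell in NCI-N87, where 74 of 79 members fell and none rose, with a median of -0.40. In SNU-484 5 fell and none rose (4 rose without T-DXd replicate 1), with a median of -0.01. Without SNU-484 T-DXd replicate 3, however, 49 fell there and the median was -0.14. The difference was negative for 58 members with all libraries, for 68 without that library and for 55 with the length trend removed, and positive for 0, 0 and 1. RPL13A measured 1270.0, 1230.0 and 1242 CPM with vehicle and 868, 874 and 887 CPM with T-DXd in NCI-N87, and 549, 603 and 599 and 567, 615 and 771 CPM in SNU-484, where replicate 3 with T-DXd was the highest and the groups overlapped (called without T-DXd replicate 1, adjusted p = 0.0164, edgeR). By library the list lay at -0.185, -0.115 and 0.219 from the vehicle mean in SNU-484 T-DXd replicates 1, 2 and 3, against -0.415 to -0.378 in NCI-N87. These genes have short transcripts and many processed copies, whose reads may be shared.

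The nuclear genes of the respiratory chain also fell in NCI-N87. Of 72, 52 fell and none rose in NCI-N87, while 12 rose and 3 fell in SNU-484 (10 and 17 without SNU-484 T-DXd replicate 3, and 2, 7 or 20 rose without SNU-484 vehicle replicate 1, vehicle replicate 2 or T-DXd replicate 1). The difference was negative for 44 and positive for 1. ATP5MC2, a subunit of the ATP synthase ring, fell from 181, 167 and 176 to 86.3, 92.4 and 91.99 CPM in NCI-N87 and measured 198, 218 and 215 and 188, 194 and 255 CPM in SNU-484. Of the 15 genes encoded by mitochondrial DNA 12 rose and none fell in SNU-484, whereas 2 rose and 1 fell in NCI-N87 (6 fell without SNU-484 T-DXd replicate 3 and 3 without T-DXd replicate 1). The difference was negative for 9. The complex I subunit ND5 went from 3929, 3604 and 3699.8 to 3200.1, 3390.2 and 3382 CPM in NCI-N87, and in SNU-484 it went from 2397, 2079 and 2414 to 2941, 3108 and 3216 CPM. Its fall in NCI-N87 was not called without vehicle replicate 1 or T-DXd replicate 1.

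**Figure D4:**
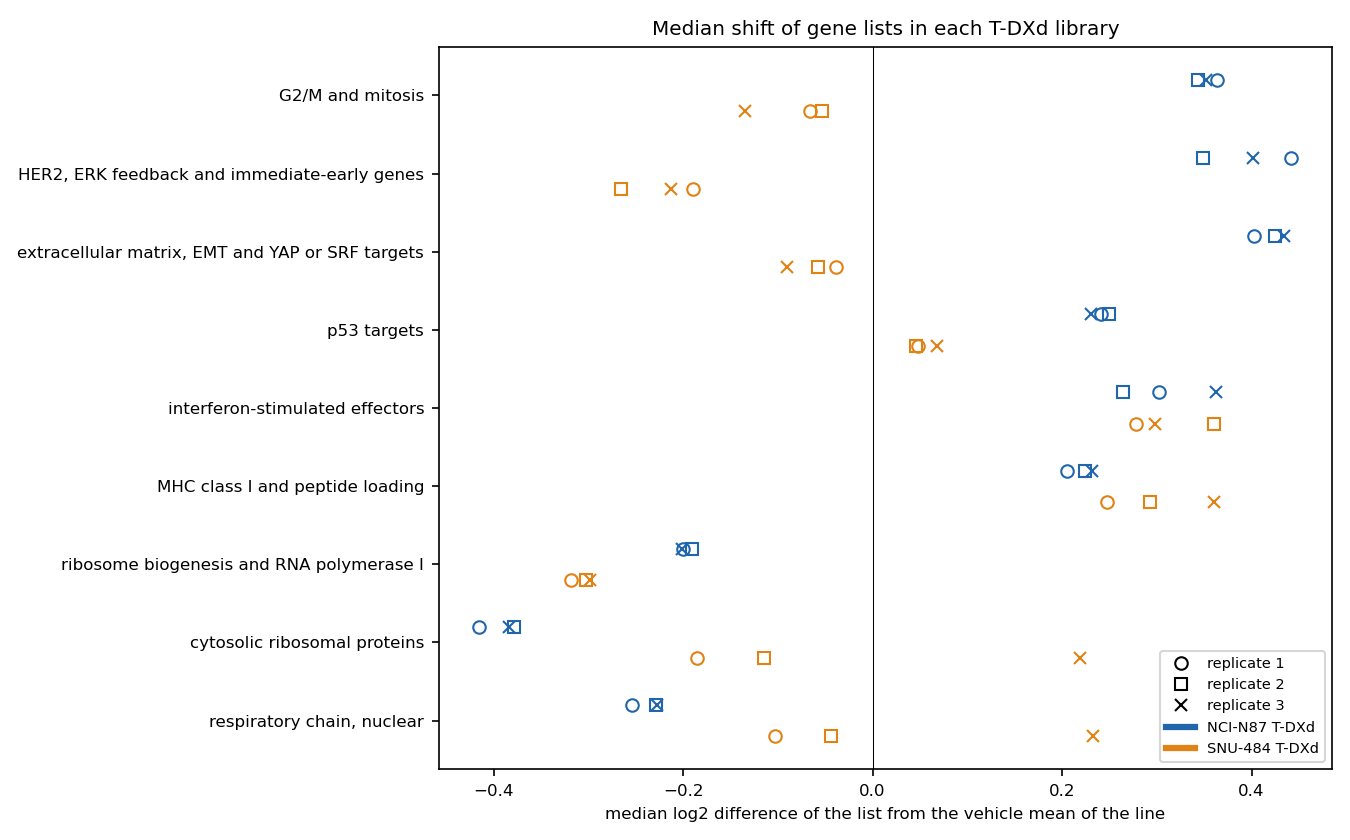
Median log2 difference of each gene list from the vehicle mean of its line (x axis) in each T-DXd library, with NCI-N87 in blue, SNU-484 in orange and a symbol per replicate. SNU-484 replicate 3 lies at 0.219 for the ribosomal proteins, apart from -0.185 and -0.115 in replicates 1 and 2, and close to them for ribosome biogenesis.

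Among those listed in both lines, genes of the extracellular matrix, of the mesenchymal state and of YAP and SRF rose mainly in NCI-N87. Of 42, 28 rose and 4 fell there (8 without SNU-484 T-DXd replicate 3), and 7 rose and 12 fell in SNU-484. Differences were positive for 24 and negative for 4. A further 11 members, among them COL3A1, COL1A2 and SPARC, were listed in SNU-484 alone and 3 in NCI-N87 alone, and were not compared. ITGA2, a collagen receptor (1.21 and -0.78), and ANKRD1, a YAP target (0.70 and -1.11), rose in NCI-N87 and fell in SNU-484. FN1, fibronectin, rose in both (1.38 ± 0.13 and 1.36 ± 0.25). With all libraries scaled together it rose from 27.3 CPM with vehicle in NCI-N87 and 0.826 CPM in SNU-484. TAGLN, an actin-binding protein, fell in both, from 30.8, 25.7 and 34.9 to 9.44, 10.4 and 12.4 CPM and from 42.6, 44.3 and 40.6 to 21.5, 23.3 and 30.5 CPM. Of 17 keratin and squamous genes 8 rose and 2 fell in NCI-N87, 2 rose and 5 fell in SNU-484, and the difference was positive for 8. Another 27 members were listed in NCI-N87 alone and 1 in SNU-484 alone, so most of that list was not compared. Of 25 tight junction genes 13 rose and 1 fell in NCI-N87 (3 fell without SNU-484 T-DXd replicate 3) and 4 rose and 4 fell in SNU-484 (7 fell without SNU-484 T-DXd replicate 1). OCLN, occludin, rose in the first line (0.28) and fell in the second (-0.29).

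Inflammatory genes under NF-kB rose in NCI-N87 for 19 of 35 members, with 3 falling (5 without SNU-484 T-DXd replicate 3). In SNU-484 4 rose and 6 fell (3 fell without SNU-484 vehicle replicate 2), and the difference was positive for 16 and negative for 4. A further 8 members, among them CXCL1, CXCL8 and IL1B, were listed in NCI-N87 alone and 2 in SNU-484 alone, and were not compared. The adhesion molecule ICAM1 rose in NCI-N87 from 26.3 ± 0.956 to 54.1 ± 0.136 CPM (SD, n = 3) and lay under 1 CPM in all SNU-484 libraries. CCL5, a chemokine for T cells, measured 0.0872, 0.0956 and 0.159 CPM with vehicle and 0.458, 0.181 and 0.366 CPM with T-DXd in SNU-484, values of few counts, and 8.802, 8.28 and 8.301 and 6.58, 7.81 and 5.59 CPM in NCI-N87. It was called in SNU-484 (1.53 ± 0.39) and not in NCI-N87 (-0.34 ± 0.17), where it was called only without SNU-484 T-DXd replicate 2 among the fits that left out 1 library. Of 35 BCL2 family and apoptosis genes 19 rose and 5 fell in NCI-N87, and 11 rose (7 without SNU-484 vehicle replicate 3) and 7 fell in SNU-484. The difference was positive for 12 and negative for 4 (7 without SNU-484 T-DXd replicate 3). The 20% that fell in SNU-484 were near the 16.1% of all genes, and the 14.3% that fell in NCI-N87 were below 24.7%. The death ligand TNFSF10 (0.32 and -0.63) rose in the first line, not without vehicle replicate 3, and fell in the second.

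Lysosomal genes rose in both lines, 29 of 50 with 6 falling in NCI-N87 and 27 with 4 falling in SNU-484, and the difference was positive for 20 and negative for 14. The sialidase NEU1 rose from 42.8, 40.2 and 42.5 to 91.9, 89.8 and 93.6 CPM in NCI-N87, and in SNU-484 it went from 118, 133 and 123 to 140.0, 143 and 156 CPM. The endosomal glycoprotein CD68 rose in NCI-N87 (1.07 ± 0.05) and not in SNU-484 (-0.03 ± 0.04), the cholesterol exporter NPC1 rose and fell (0.65 and -0.26), and the protease CTSD fell and rose (-0.35 and 0.30). Of 33 cholesterol and fatty acid genes 12 rose and 10 fell in NCI-N87 and 3 rose (1 without vehicle replicate 1 or 2) and 17 fell in SNU-484, and the difference was positive for 17 (11 with upper-quartile scaling) and negative for 4. STARD4, a carrier of sterol, fell in both (-0.26 and -1.14), by more in SNU-484 (adjusted p = 1.45e-05, edgeR).

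MT2A and MT1X, metallothioneins that bind zinc and copper, fell in NCI-N87. MT2A (chromosome 16, 56608584 to 56609497) measured 47.2, 47.99 and 45.02 CPM with vehicle and 15.4, 14.6 and 14.9 CPM with T-DXd there, and 6.64, 7.61 and 7.92 and 8.504, 7.604 and 12.5 CPM in SNU-484, where replicate 3 was the highest and the change was called only without T-DXd replicate 1 or 2 among the fits that left out 1 library. The difference was -1.99 ± 0.19 (adjusted p = 3.5e-06, edgeR). MT1X had -2.22 ± 0.16 and 0.56 ± 0.21, the latter called without SNU-484 vehicle replicate 3. In their list of 7 genes 1 rose and 3 fell in NCI-N87 (5 without SNU-484 T-DXd replicate 3) and 1 rose and 2 fell in SNU-484.

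Of 41 replication-dependent histone genes, most of whose transcripts lack a poly(A) tail and which share sequence, 6 rose and 8 fell in NCI-N87 and 16 rose and 1 fell in SNU-484, with a negative difference for 12 and a positive one for 2. Of 34 targets of ATF4 in the integrated stress response 18 rose and 10 fell in NCI-N87 and 10 rose (6 without SNU-484 vehicle replicate 1 or 2) and 14 fell in SNU-484, with a positive difference for 14 and a negative one for 5. The amino acid transporter SLC7A5 rose from 629, 613 and 614 to 726, 707 and 734 CPM in NCI-N87 and fell from 119, 119 and 117 to 68.6, 71.8 and 71.96 CPM in SNU-484, a difference of 0.96 ± 0.05 (adjusted p = 1.3e-08, edgeR). Of 32 genes of glycolysis and hypoxia 14 rose and 10 fell in NCI-N87 (6 fell without NCI-N87 vehicle replicate 1 or 3 or NCI-N87 T-DXd replicate 3) and 7 rose and 9 fell in SNU-484, and the difference was positive for 12 and negative for 7. Of these shares, 31.2% down in NCI-N87, 21.9% up in SNU-484 and 21.9% with a negative difference were near those of all genes (24.7%, 16.3% and 19.3%). Of 10 gastric and intestinal genes 2 rose and 3 fell in NCI-N87 and 3 rose in SNU-484, and the difference was negative for 5 and positive for 0. In NCI-N87 the shares of 20% up and 30% down were near those of all genes (26.9% and 24.7%). A further 13 members were listed in NCI-N87 alone, so most of that list was not compared. The mucin MUC1 rose in SNU-484 (0.79 ± 0.09) and the intestinal factor CDX2 fell in NCI-N87 (-0.54 ± 0.07), and neither was called in the other line.

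Among single genes outside these lists that rose in both lines, FAXDC2, a relative of sterol-modifying enzymes, went from 2.36, 2.54 and 3.11 to 8.86, 9.17 and 8.77 CPM in NCI-N87, and in SNU-484 it went from 2.95, 2.76 and 2.66 to 7.59, 6.12 and 6.601 CPM, with a difference called in 8 of 21 alternatives. ACE, the angiotensin-converting enzyme (0.87 and 0.94) and the matrix protein MATN2 (1.29 and 0.80) also rose in both. SNHG3, a host gene of small nucleolar RNAs, fell from 68.5, 71.8 and 70.7 to 35.1, 37.2 and 35.3 CPM and from 65.2, 76.8 and 76.1 to 38.8, 44.9 and 54.3 CPM, with a difference called without SNU-484 T-DXd replicate 1 (adjusted p = 0.00717, edgeR) and not with all libraries. PPARGC1B, a coactivator of mitochondrial genes (-0.72 and -0.67), and WDR4, a partner of a tRNA methyltransferase (-0.70 and -0.62), fell in both, with differences of -0.05 ± 0.15 and -0.08 ± 0.13 that were not called.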

How the data were processed

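The values used were read counts per gene on GRCh38, which the authors made with Trimmomatic 0.38, HISAT2 2.1.0 and StringTie 2.1.3b, per the labels' processing notes, and deposited as 1 table per line. The annotation release is not given in the sources used here. The tables also hold FPKM, TPM and normalized values and, for each comparison of the authors, fold changes and p-values, none of which were used. Genes were joined on their gene ID, and 86 carried another symbol in the second table.

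Genes were kept by edgeR's filterByExpr (at least 10 counts, 15 in total), scaled by TMM over 12 libraries and fitted with 1 term per group (edgeR 4.0.16, quasi-likelihood, R 4.3.3). The contrast of the 2 fold changes and each line's own contrast were tested two-sided, with Benjamini-Hochberg adjustment over all 14785 genes and a threshold of 0.05. A same-direction or opposite gene was called in both lines. A gene of 1 line only was called there and for the difference, and not in the other line. CPM values are edgeR's, without prior, and error terms of fold changes are SE. The labels call the libraries biological replicates but nothing says that they came from separate cultures, so p-values measure the spread between these libraries. Positions are those of the RefSeq annotation.

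The gene lists and the genes named were chosen with earlier results of these data known. The naming rule took the 12 highest and lowest called differences among genes whose groups did not overlap in the line with the larger change. It also took the 8 largest changes of each class, up to 4 members per list and genes the study names. A mean log2 CPM of at least 2 was required over all libraries for the differences and in both lines for the classes. Another 32 genes were named after their values were seen. Of 29 lists, 24 held pathways and 5 held cell type markers. List members that were listed in a single line were not compared between the lines. Alternatives were DESeq2 1.42.0, limma-voom 3.58.1 with weights per line, other scalings and filters, each line on its own, a replicate block, a 2-fold rule and leaving out each library. Fits with the length trend removed, and fits that combined this or a single line with the loss of SNU-484 T-DXd replicate 3, were chosen after seeing the data. The 3 trastuzumab libraries were left out. HLA, histone, metallothionein and ribosomal protein genes share sequence, so their counts are uncertain. Some results are not reported here.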

Additional observations from a re-analysis of the deposited data

Results flagged for a closer look

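The test of the difference itself marked 6161 genes whose change with T-DXd was not the same in NCI-N87 and SNU-484, of which 3301 had the higher log2 fold change in NCI-N87. Among the genes called in both lines, 1078 had changes of opposite sign.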

How the results depend on the processing

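The count of genes called for the difference ran from 5371 to 6839 when each library was left out in turn, that of NCI-N87 from 6558 to 8827 and that of SNU-484 from 3622 to 5397. The same-direction class ran from 1374 to 2481, the opposite class from 761 to 1242, the NCI-N87-only class from 2682 to 3405 and the SNU-484-only class from 868 to 1287. Over the alternatives in which the difference was fitted, 85.5% to 99.3% of its calls were also called with the same sign and none with the opposite sign. With each line fitted on its own 9054 genes were called in NCI-N87 and 3032 in SNU-484, against 7628 and 4792 in the joint fit. With limma-voom and weights per line 9042 and 3573 were called. For SNU-484 on its own the count was 4843 when T-DXd replicate 3 was also left out, a setting chosen after seeing the data. With the length trend removed and that replicate out, also chosen after seeing the data, 2725 genes moved in the same direction. With a change of at least 2-fold required, by construction fewer genes remained: 18 in the same direction, 11 opposite, 335 in NCI-N87 only and 52 in SNU-484 only. The positive share of the difference calls was 53.6%, against 43.4% with upper-quartile scaling and 48.7% without SNU-484 T-DXd replicate 3, and the cause was not tested.

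Same-numbered vehicle and T-DXd libraries deviated together with r of 0.0274, 0.0179 and -2.3e-05 in NCI-N87 and 0.204, -0.0424 and 0.216 in SNU-484, so the numbers were not taken to pair them. With the replicate block within each line, 6628 genes were called for the difference, 8074 in NCI-N87 and 5393 in SNU-484, with 2025 in the same and 1334 in opposite directions. For single named genes, 654 values (a gene in 1 contrast) were each refitted under the alternatives. Of these refits 272 lost a call and 182 gained one, with the sign unchanged. The other 14026 kept their sign and their side of the threshold, or changed sign from a value not called before. Such changes of sign were counted there whether or not the refit was called. A gene at a few CPM in 1 line, such as AREG in SNU-484, has a wide interval there.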
